A study of Mus musculus with 9 samples.

Results

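The genes described are 52 mitosis genes, the set that cells switch on in G2 and M phase to condense chromosomes, build the spindle, check the attachment of chromosomes and split the cell. They were taken from a list of 55 gene names, of which 52 could be measured, among 12393 genes in all; Ccnb1, Cdca8 and Espl1 were not analysed here. Each gene was read from 1 probe set, the one with the highest mean over the 9 arrays, and the rule used gene names and no measured difference, although the list was drawn up with earlier results of these data known.

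The study asked what becomes of regulatory T cells (Treg cells, which restrain immune responses and depend on the transcription factor Foxp3) when either of a pair of related histone acetyltransferases is deleted. Total RNA was taken from CD4+CD25+ Treg cells, separated with magnets, of C57Bl/6 mice. There were 3 samples of fl-CBP/Foxp3cre mice, here called CBP-deleted, 3 of fl-p300/Foxp3cre mice, here called p300-deleted, and 3 of Foxp3cre mice as the control. By these names all 3 groups would carry Cre, driven from Foxp3. The floxed alleles can recombine only in cells that have expressed Foxp3. The labels also call the control wild type, so whether the control carries Cre is not settled. They give no age or sex and do not say whether animals were pooled. The samples are described as independent. The values are RMA values on a log2 scale from Affymetrix arrays, so a difference of 1 is a 2-fold difference.

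Mitosis genes are nearly silent in resting cells and rise together as a cell passes from G2 into M. Cyclins A and B bind the kinase Cdk1 and start mitosis, the Polo and Aurora kinases organise the centrosomes and the spindle, and the checkpoint kinases hold the cell until every kinetochore is attached. Cdc20 then turns on the anaphase-promoting complex, a ubiquitin ligase that destroys cyclin B and securin, and the chromosomes separate. CBP and p300 are coactivators that acetylate histones and many transcription factors. In a bulk sample a smaller share of dividing cells and less transcript per dividing cell cannot be told apart.

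The 3 groups differed in Foxp3 itself before any mitosis gene is considered. Its log2 value was 2.73, 2.91 and 2.97 in the CBP-deleted arrays and 2.58, 3.08 and 3.19 in the p300-deleted arrays, against 9.75, 9.58 and 9.48 in the control arrays. Foxp3 was thus far lower on all 6 arrays of the deleted groups. It was read from 1 probe set, and whether the alleles of these mice affect that probe set was not tested. No other Treg marker differed by as much: the 9 measured, Foxp3 included, summed to a linear level of 7972 to 8580 in CBP-deleted, 10160 to 10300 in p300-deleted and 9267 to 10060 in control arrays. Against control, 3 of the 9 fell and 1 rose in CBP-deleted cells (median -0.23), while 4.93% of all genes were called. In p300-deleted cells 1, Foxp3, fell and 1 rose (median 0.24, with 7 of 9 differences positive), while 4.06% of all genes were called. Between the deletions 3 of the 9 were called lower in CBP-deleted than in p300-deleted cells and 0 higher, while 5.20% of all genes were called. Cd25 (Il2ra), used for the separation, ranged from 8.93 to 9.18 in CBP-deleted, from 9.22 to 9.33 in p300-deleted and from 8.77 to 9.22 in control arrays, and was not called in any comparison. Crebbp, which encodes CBP, was lower by less than the test could call in CBP-deleted cells (log2 difference -0.33, limma adjusted p = 0.123), and Ep300, which encodes p300, was not analysed here. A probe outside the deleted exons would not register the deletion, and the place of the Crebbp probe set was not examined.

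The strongest contrast was between the deletions. Of the 52 mitosis genes, 49 were higher in CBP-deleted than in p300-deleted cells and 0 were lower, whereas 5.20% of all 12393 genes were called, 3.20% higher and 2.01% lower (limma, adjusted p below 0.05 over all genes). At an unadjusted p below 0.05, 50 were higher and 0 lower. The median difference of the mitosis genes was 1.24 on the log2 scale, beside -0.02 for all genes, and single genes ranged from -0.17 to 1.70. At least a 2-fold difference was seen for 40 of them. All 3 CBP-deleted arrays lay above all 3 p300-deleted arrays for 50 of 52 genes, as for 15.8% of all genes. The 3 genes not called were Foxm1, Pttg1 and Smc4.

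Against the control, more mitosis genes were called in p300-deleted than in CBP-deleted cells over all 9 arrays, but not without control replicate 3. Without that array 21 were called in p300-deleted and 25 in CBP-deleted cells, with medians of -0.58 and 0.59. Over all arrays, in p300-deleted cells 21 of 52 mitosis genes fell and 1, Smc4, rose, while 4.06% of all genes were called, 2.04% lower and 2.02% higher; 30 did not pass the test. The p300-deleted arrays lay below the control arrays without overlap for 39 genes and above them for 1, as for 11.5% and 8.76% of all genes. The median difference was -0.91, beside -0.02 for all genes, and 51 of the 52 differences were negative. In CBP-deleted cells 2 genes rose, Cenpk and Cenpv, and 0 fell, while 4.93% of all genes were called, 2.14% higher and 2.79% lower. At an unadjusted p below 0.05, 12 were higher and 1 lower in limma. The CBP-deleted arrays lay above the control arrays without overlap for 3 genes and below them for 1, as for 10% and 14.5% of all genes. The median there was 0.33, beside -0.03 for all genes, with 48 positive differences and 4 negative ones. Both comparisons use the same 3 control arrays, so their values are given side by side only. By the group means 47 genes were highest in CBP-deleted cells, intermediate in control cells and lowest in p300-deleted cells. For 38 genes all 3 p300-deleted arrays lay below the other 6 arrays, as they did for 5.03% of all genes.

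The counts depended on single arrays. The 49 genes called between the deletions became 17 without CBP-deleted replicate 2, 25 without CBP-deleted replicate 3, 19 without p300-deleted replicate 2 and 26 without p300-deleted replicate 3. The 22 genes called in p300-deleted cells against control became 1 without p300-deleted replicate 2, 6 without p300-deleted replicate 3, 7 without control replicate 1, 10 without CBP-deleted replicate 2 and 44 without control replicate 2. The median differences moved less, staying between 1.13 and 1.39 for CBP-deleted against p300-deleted and between -1.15 and -0.58 for p300-deleted against control when any 1 array was left out.

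**Figure D1:**
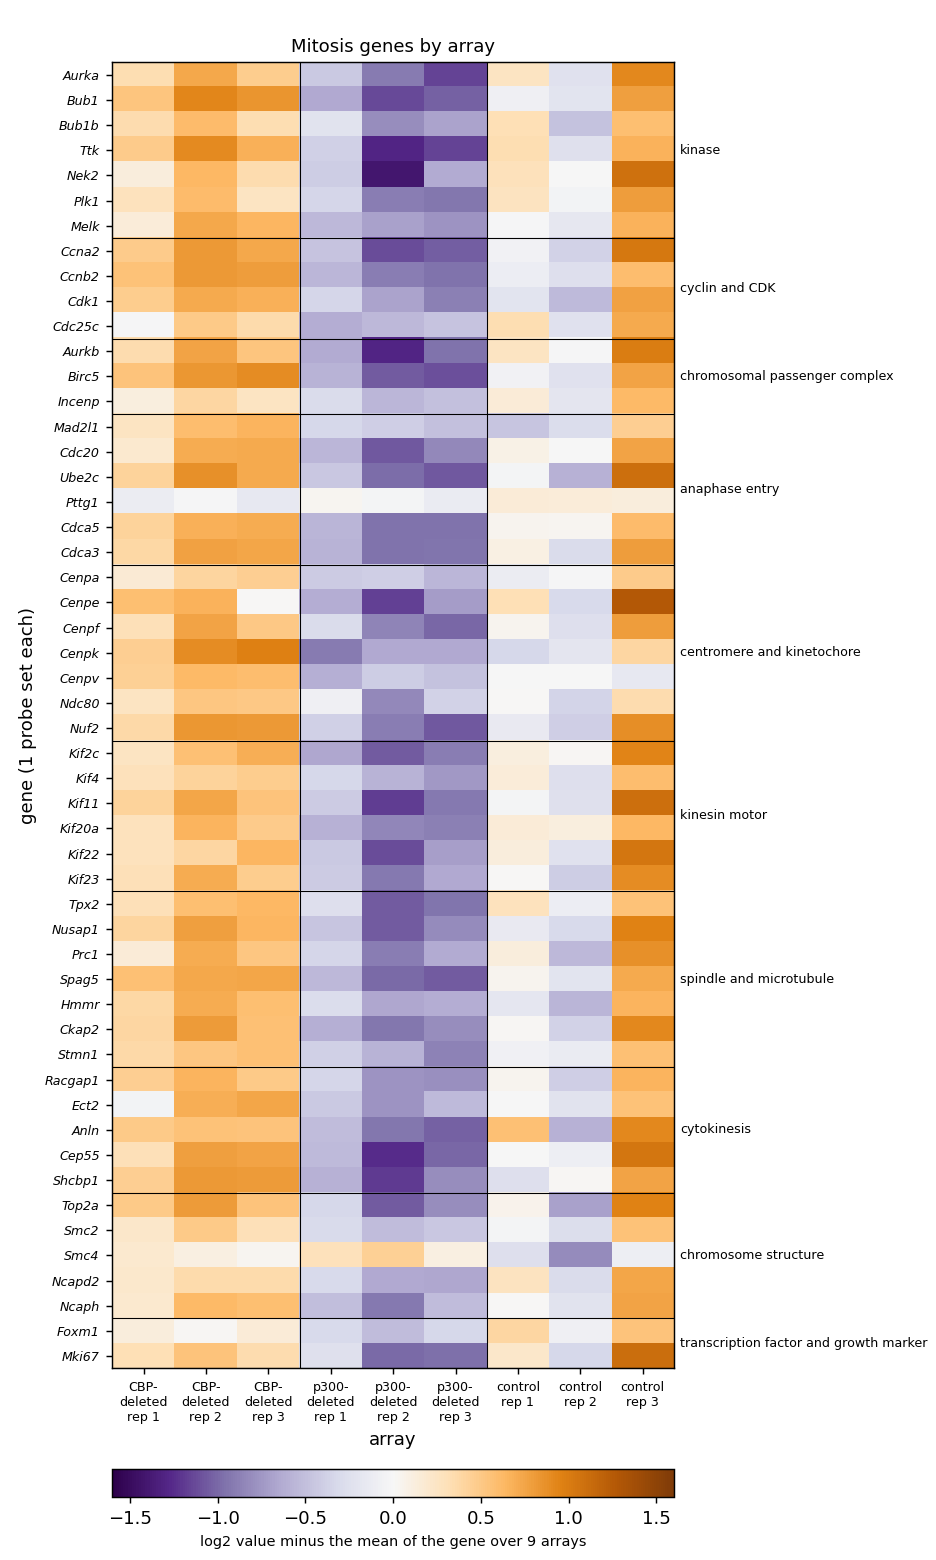
Log2 value of each of the 52 mitosis genes (rows, grouped by role) on each of the 9 arrays (columns), minus the gene's mean over the arrays. The CBP-deleted columns are mostly orange (higher), the p300-deleted columns mostly purple (lower), and control replicate 3 is orange while control replicates 1 and 2 are pale; Pttg1 and Smc4 do not follow the other rows.

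The control arrays were far from alike. The median over mitosis genes of the deviation from each gene's mean was 0.33, 0.69 and 0.57 on CBP-deleted replicates 1, 2 and 3. On the p300-deleted arrays it was -0.43, -0.90 and -0.81, and on the control arrays 0.04, -0.24 and 0.75. Control replicate 3 thus stood with the CBP-deleted arrays, and it was the highest control array for 50 of 52 genes and the highest of all 9 arrays for 31. Over 3 arrays the median standard deviation (SD) of a mitosis gene was 0.19 in CBP-deleted, 0.26 in p300-deleted and 0.52 in control cells, while over all genes it was 0.10, 0.11 and 0.16 in the same order of groups. The median SD was thus larger for the mitosis genes than for all genes in each group, with the largest gap in the control. Of the array's control features, the 18S ribosomal RNA probe sets also set control replicate 3 apart from the other control arrays, and p300-deleted replicate 2 read highest of all. Their mean log2 level was 7.39, 8.0 and 7.85 on CBP-deleted arrays and 7.88, 9.62 and 8.07 on p300-deleted arrays, against 5.82, 6.20 and 8.88 on control arrays. With that level as a covariate, 49 mitosis genes were called between the deletions, 28 in p300-deleted against control cells and 2 in CBP-deleted against control cells; its part in the differences was otherwise not tested. Without control replicate 3, 50, 21 and 25 mitosis genes were called in these comparisons, in the same order.

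Promoter sequences show what these genes share beyond their role. In textbook accounts many mitosis genes carry a CHR element (cell cycle genes homology region, TTTGAA) near the start of transcription, bound by the DREAM and MuvB complexes that keep them silent in G1 and, joined by B-Myb and FoxM1, switch them on in G2. CCAAT boxes, bound by NF-Y, often lie a few helix turns upstream. RefSeq promoter sequences (GRCm38.p6, 250 bases before to 50 bases after the start) were available for 42 of the 52 genes, 47 sequences in all. TTTGAA on either strand stood in 33 of the 47 (70.2%), against 17.9% of 32851 promoters of all genes and 14% of 50 promoters of DNA replication genes. Within 50 bases of the start it stood in 29 of the 47 (61.7%), against 4.94% of all promoters. CCAAT on either strand stood in 33 (70.2%), against 37.4% of all promoters, and both motifs stood together in 57.4%, against 6.95%. The E2F motif TTCCCGC, typical of replication genes, stood in 2.13% of mitosis gene promoters, in 34.0% of those of DNA replication genes and in 4.6% of all promoters. No TTTGAA match overlapped a CCAAT match in the mitosis genes' promoters (0 overlaps). A match describes the letters and is not proof of a bound site.

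The sequences below are from 4 genes that differed strongly between the deletions and 1, Pttg1, that was not called, and they are printed to show the motifs. Of the 42 genes with a sequence, 41 were called higher in CBP-deleted than in p300-deleted cells, and Pttg1 was the only other. Whether the motifs go with the differences can therefore not be told from these promoters. Ttk lies at chr9:83834439-83834738 (plus strand), Ccnb2 at chr9:70421505-70421804 (minus strand), Ube2c at chr2:164769679-164769978 (plus strand), Bub1 at chr2:127831810-127832109 (minus strand) and Pttg1 at chr11:43425932-43426231 (minus strand), all in GRCm38.p6. Each is 300 bases long, 5′ to 3′ in the direction of the gene, and capitals mark matches. On the gene's own strand a CHR match reads TTTGAA and a CCAAT box reads as named. A CHR match on the opposite strand reads TTCAAA here, and a CCAAT box on the opposite strand reads ATTGG.
Ttk: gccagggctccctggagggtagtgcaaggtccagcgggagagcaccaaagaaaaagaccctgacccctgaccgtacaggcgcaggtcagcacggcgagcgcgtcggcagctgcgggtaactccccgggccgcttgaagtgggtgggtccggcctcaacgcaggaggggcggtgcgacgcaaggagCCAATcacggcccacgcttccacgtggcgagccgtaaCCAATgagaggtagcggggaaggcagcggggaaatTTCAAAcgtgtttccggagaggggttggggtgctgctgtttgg
Ccnb2: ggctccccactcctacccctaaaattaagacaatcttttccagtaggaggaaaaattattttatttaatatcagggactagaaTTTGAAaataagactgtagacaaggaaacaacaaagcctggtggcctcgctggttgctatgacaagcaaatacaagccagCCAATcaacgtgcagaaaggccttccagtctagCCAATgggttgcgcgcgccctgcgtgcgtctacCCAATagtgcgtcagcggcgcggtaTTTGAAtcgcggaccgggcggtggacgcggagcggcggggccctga
Ube2c: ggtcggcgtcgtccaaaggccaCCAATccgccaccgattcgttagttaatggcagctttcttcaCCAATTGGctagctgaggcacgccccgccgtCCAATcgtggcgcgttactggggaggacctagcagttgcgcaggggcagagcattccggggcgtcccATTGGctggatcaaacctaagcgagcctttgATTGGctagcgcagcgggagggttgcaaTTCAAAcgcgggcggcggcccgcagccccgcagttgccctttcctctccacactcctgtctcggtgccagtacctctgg
Bub1: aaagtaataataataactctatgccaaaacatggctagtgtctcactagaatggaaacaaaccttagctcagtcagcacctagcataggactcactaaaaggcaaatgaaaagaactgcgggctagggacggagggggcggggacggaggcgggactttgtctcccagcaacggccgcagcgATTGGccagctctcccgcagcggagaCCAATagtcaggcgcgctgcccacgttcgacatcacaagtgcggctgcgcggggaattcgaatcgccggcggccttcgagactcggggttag
Pttg1: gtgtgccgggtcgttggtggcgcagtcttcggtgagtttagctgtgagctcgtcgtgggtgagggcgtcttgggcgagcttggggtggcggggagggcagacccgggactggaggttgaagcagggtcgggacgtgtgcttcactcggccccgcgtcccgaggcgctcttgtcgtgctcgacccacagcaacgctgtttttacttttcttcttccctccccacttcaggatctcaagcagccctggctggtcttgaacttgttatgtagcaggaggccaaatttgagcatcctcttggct

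In Ttk the CHR element lies at base 8 after the start, on the opposite strand, with CCAAT boxes at -65 and -28. Ccnb2 has CHR elements at -167 and 5 and CCAAT boxes at -87, -54 and -21. Ube2c has 1 CHR element at -29 and 6 CCAAT matches, 2 of which overlap as a palindrome at -186 and -183. Bub1 holds CCAAT at -68 and -42 but no TTTGAA in this window, and it showed the largest difference of all 52 genes. Only the letters TTTGAA were searched, so whether Bub1 has a CHR element in another spelling was not tested. The Pttg1 window holds none of the 3 motifs. Positions are those of the first base of the match, counted so that the start base is 1.

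Counts by role are to be read beside those of the whole list. Of the 52 mitosis genes 49 were called higher between the deletions, and 21 fell in p300-deleted against control cells. Of all genes, 3.20% and 2.04% were so called. Mitotic kinases were higher in CBP-deleted than in p300-deleted cells for all 7 measured, and 5 of 7 fell in p300-deleted cells against control. Bub1, a spindle checkpoint kinase of the kinetochore, read 7.87, 8.27 and 8.18 in CBP-deleted arrays, 6.69, 6.21 and 6.30 in p300-deleted arrays and 7.26, 7.13 and 8.12 in control arrays. Its CBP-deleted arrays stood above every p300-deleted array, and control replicate 3 stood with them. The difference between the deletions was 1.70 (SE 0.23, 3.26-fold, limma adjusted p = 0.00235), and p300-deleted minus control was -1.10 (adjusted p = 0.0233), while CBP-deleted minus control was 0.60 (adjusted p = 0.158). Ttk, the Mps1 kinase that starts the checkpoint signal, read 6.13, 6.56 and 6.33 in CBP-deleted, 5.27, 4.36 and 4.49 in p300-deleted and 5.98, 5.40 and 6.32 in control arrays. All p300-deleted values lay below all control values, and the differences were 1.63 between the deletions (adjusted p = 0.00463) and -1.20 against control (adjusted p = 0.0279). Nek2, a centrosome kinase, read 5.21, 5.71 and 5.42 in CBP-deleted, 4.68, 3.67 and 4.45 in p300-deleted and 5.37, 5.07 and 6.16 in control arrays. It was called lower in p300-deleted cells against control, by 2.40-fold (limma adjusted p = 0.0364), with CBP-deleted minus control at -0.09. Aurka, which matures the centrosomes, and Plk1, the Polo kinase, also fell, by 2.21-fold and 2.08-fold. Bub1b and Melk did not pass in that comparison (adjusted p = 0.129 and 0.0503).

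The cyclins and Cdk1 were less evenly separated from control. Ccnb2, a B-type cyclin, read 8.40, 8.66 and 8.64 in CBP-deleted, 7.29, 6.95 and 6.89 in p300-deleted and 7.74, 7.58 and 8.43 in control arrays. No p300-deleted array reached a control array. Ccnb2 differed by 1.53 between the deletions (SE 0.19, 2.88-fold, limma adjusted p = 0.00171), and p300-deleted minus control was -0.87 (adjusted p = 0.0298). Cyclin A2 (Ccna2) read 8.87, 9.21 and 9.13 in CBP-deleted, 7.92, 7.27 and 7.35 in p300-deleted and 8.34, 8.03 and 9.43 in control arrays. The control arrays spanned the CBP-deleted ones, and all p300-deleted arrays lay below all control arrays. Only the difference between the deletions was called (1.55, 2.94-fold, adjusted p = 0.0101, against 0.06 for p300-deleted minus control). The other Ccna2 probe set gave -1.16 for p300-deleted minus control. Its limma adjusted p over all probe sets was 0.0493, beside 0.0793 for the probe set used. Cdk1, the kinase they activate, and Cdc25c, the phosphatase that switches it on, differed between the deletions by 1.26 and 0.82, with no call against control in either.

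The chromosomal passenger complex, which corrects faulty attachments and then marks the site of division, was higher in CBP-deleted than in p300-deleted cells for all 3 measured members. Aurkb, its kinase, read 6.61, 7.03 and 6.80 in CBP-deleted, 5.64, 4.98 and 5.32 in p300-deleted and 6.53, 6.25 and 7.27 in control arrays. Here the p300-deleted arrays stood apart and the others overlapped. Aurkb had the largest fall of all mitosis genes in p300-deleted against control cells, 2.58-fold (log2 difference -1.37, SE 0.24, limma adjusted p = 0.0117), while CBP-deleted minus control was 0.13. Survivin (Birc5), the subunit that brings the complex to centromeres, read 8.69, 8.97 and 9.04 in CBP-deleted, 7.56, 7.09 and 7.04 in p300-deleted and 8.08, 7.91 and 8.90 in control arrays. It was 3.19-fold higher in CBP-deleted than in p300-deleted cells (adjusted p = 0.00235) and 2.09-fold lower in p300-deleted than in control cells (adjusted p = 0.0262). Incenp, the scaffold, had the smallest difference among the genes called between the deletions, 0.71.

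Genes of anaphase entry were higher in CBP-deleted cells than in p300-deleted cells for 5 of 6. Cdc20, the activator of the anaphase-promoting complex, read 8.64, 9.15 and 9.16 in CBP-deleted, 7.89, 7.38 and 7.61 in p300-deleted and 8.53, 8.44 and 9.20 in control arrays. It fell 2.14-fold in p300-deleted against control cells (limma adjusted p = 0.0162). Cdca5 (sororin), which protects sister chromatid cohesion, read 8.0, 8.26 and 8.29 in CBP-deleted, 7.01, 6.62 and 6.62 in p300-deleted and 7.63, 7.61 and 8.19 in control arrays. The p300-deleted arrays were clearly apart, with differences of 1.44 between the deletions (adjusted p = 0.00161) and -1.06 against control (adjusted p = 0.00819). Ube2c, a ubiquitin-conjugating enzyme of the anaphase-promoting complex, was 2.83-fold higher in CBP-deleted than in p300-deleted cells (adjusted p = 0.0212) and had the widest control spread of all, 8.91, 8.34 and 10.03. Pttg1 (securin), the inhibitor of separase, was the exception: 10.85, 10.96 and 10.82 in CBP-deleted, 11.01, 10.94 and 10.84 in p300-deleted and 11.13, 11.12 and 11.10 in control arrays. Its CBP-deleted minus p300-deleted difference was -0.05 (95% confidence interval -0.21 to 0.10, adjusted p = 0.755), an interval that excludes a 2-fold difference.

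Centromere and kinetochore genes were higher in CBP-deleted than in p300-deleted cells for all 7, and they held both genes that rose in CBP-deleted cells against control. Cenpk, a subunit of the constitutive centromere network, read 7.15, 7.59 and 7.67 in CBP-deleted, 5.79, 6.05 and 6.06 in p300-deleted and 6.37, 6.51 and 7.09 in control arrays. The groups formed 3 steps without overlap, and CBP-deleted minus control was 0.81 (SE 0.19, 1.75-fold, limma adjusted p = 0.0339). Cenpv, a centromere protein, read 7.08, 7.26 and 7.24 in CBP-deleted, 6.03, 6.24 and 6.16 in p300-deleted and 6.63, 6.63 and 6.49 in control arrays. Its arrays agreed closely within each group, and it was the 1 gene called in all 3 comparisons, 0.61 in CBP-deleted against control (1.53-fold, adjusted p = 0.0122), -0.44 in p300-deleted against control (adjusted p = 0.0425) and 1.05 between the deletions (adjusted p = 0.00108). Both calls depended on single arrays: 0 genes were called in CBP-deleted against control cells without CBP-deleted replicate 2 or without CBP-deleted replicate 3, and at an unadjusted limma p below 0.05 there were 5 higher and 1 lower in each case. The count was 1 without p300-deleted replicate 2, control replicate 1 or control replicate 2, and 25 without control replicate 3. Nuf2 and Ndc80, parts of the outer kinetochore complex that grips microtubules, differed between the deletions by 1.45 and 0.86. Cenpe, a kinetochore motor, was dim, with 3.13, 2.59 and 3.04 in p300-deleted arrays.

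**Figure D2:**
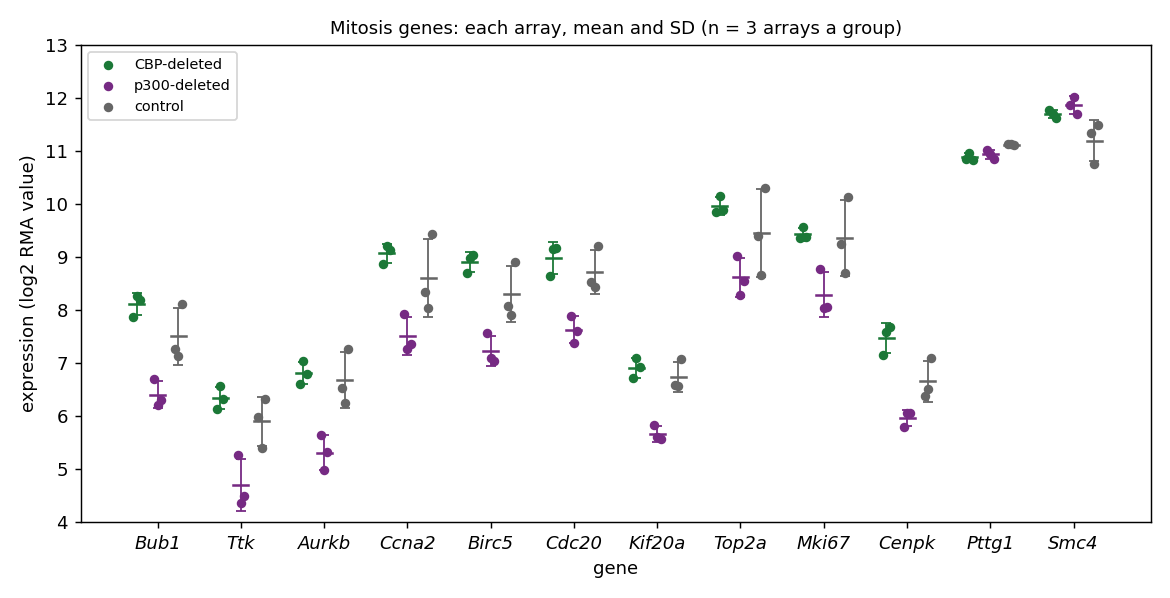
Log2 values of 12 mitosis genes on each array (points), with the group mean (bar) and SD (whiskers, n = 3), in CBP-deleted, p300-deleted and control cells. In 10 of the genes the CBP-deleted points lie above the p300-deleted points, while in Pttg1 and Smc4 they do not, and the control points spread widely in Ccna2, Top2a and Mki67.

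Kinesin motors were higher in CBP-deleted than in p300-deleted cells for all 6, and 3 of 6 fell in p300-deleted cells. Kif2c, which takes microtubules apart at the centromere, read 6.48, 6.79 and 6.91 in CBP-deleted, 5.57, 5.16 and 5.33 in p300-deleted and 6.34, 6.24 and 7.17 in control arrays. It was 2.34-fold lower in p300-deleted than in control cells (limma adjusted p = 0.0135). Only its brightest probe set was called there. The others gave log2 differences of -0.67, -0.24 and -0.10 (limma adjusted p over all probe sets = 0.128, 0.322 and 0.705). Kif20a, which acts in the late spindle, read 6.72, 7.09 and 6.92 in CBP-deleted, 5.84, 5.60 and 5.56 in p300-deleted and 6.59, 6.56 and 7.07 in control arrays. All p300-deleted arrays lay below every control array, and the fall of 2.10-fold had the lowest p of the mitosis genes in that comparison (adjusted p = 0.00712). Kif22 also fell (2.10-fold, adjusted p = 0.048). The bipolar spindle motor Kif11 was 2.66-fold higher in CBP-deleted than in p300-deleted cells, and its fall against control was not called (adjusted p = 0.0564).

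The spindle and cytokinesis genes moved alike. All 7 spindle and microtubule genes and all 5 cytokinesis genes were higher in CBP-deleted than in p300-deleted cells, with medians of 1.26 and 1.36. Spag5 (astrin), which stabilises spindle poles, read 6.74, 6.90 and 6.91 in CBP-deleted, 5.62, 5.18 and 5.11 in p300-deleted and 6.22, 5.96 and 6.89 in control arrays, 2.92-fold higher in CBP-deleted than in p300-deleted cells (limma adjusted p = 0.00247). Stmn1 (stathmin), which destabilises microtubules, read 10.65, 10.79 and 10.85 in CBP-deleted, 9.90, 9.70 and 9.41 in p300-deleted and 10.21, 10.14 and 10.84 in control arrays. Every p300-deleted array lay below the other 6 for both genes. Spag5, Tpx2 (an activator of Aurora A) and Stmn1 were the 3 spindle genes that fell against control. Of the cytokinesis genes, Cep55, which recruits the final cutting machinery, fell 2.37-fold (adjusted p = 0.0301) and Shcbp1 fell 2.05-fold (adjusted p = 0.0314). Cep55 read 7.57, 8.04 and 8.02 in CBP-deleted, 6.73, 6.00 and 6.26 in p300-deleted and 7.25, 7.17 and 8.31 in control arrays. Anln (anillin), Ect2 and Racgap1, which build the contractile ring, did not pass against control (adjusted p = 0.0583, 0.128 and 0.0804). The other Racgap1 probe set did pass, at -0.96 in p300-deleted against control cells (limma adjusted p over all probe sets = 0.0303).

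Chromosome structure genes included an exception, Smc4. Top2a, the topoisomerase that untangles sister chromatids, read 9.84, 10.15 and 9.89 in CBP-deleted, 9.01, 8.29 and 8.54 in p300-deleted and 9.40, 8.65 and 10.30 in control arrays, a spread of control values wider than the difference between the deletions (1.34, limma adjusted p = 0.0299). The condensin genes Smc2, Ncapd2 and Ncaph were higher in CBP-deleted than in p300-deleted cells by 0.76, 0.84 and 1.11. Smc4, the partner of Smc2 in condensin, read 11.77, 11.69 and 11.61 in CBP-deleted, 11.87, 12.02 and 11.69 in p300-deleted and 11.33, 10.76 and 11.49 in control arrays. It was higher in p300-deleted than in control cells by 0.67 (1.59-fold, adjusted p = 0.0364) and not called between the deletions (-0.17, adjusted p = 0.63). Its other 2 probe sets differed by -0.03 and 0.01 between p300-deleted and control cells, so that only its brightest probe set shows the rise, and the mean of its 3 probe sets gave 0.22 (adjusted p = 0.419, range over alternatives 0.0107 to 0.419).

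Foxm1 and Mki67 close the list. Foxm1, the transcription factor that drives many G2 and M genes, read 5.98, 5.86 and 6.00 in CBP-deleted, 5.53, 5.33 and 5.52 in p300-deleted and 6.24, 5.77 and 6.39 in control arrays. The p300-deleted arrays were lowest, but the difference between the deletions was not called (0.49, 95% confidence interval 0.15 to 0.82, limma adjusted p = 0.0973), whereas the fall against control was (-0.67, adjusted p = 0.0339). Mki67, the Ki-67 antigen that marks cycling cells, read 9.35, 9.57 and 9.37 in CBP-deleted, 8.78, 8.03 and 8.06 in p300-deleted and 9.25, 8.70 and 10.13 in control arrays. It was called between the deletions (1.14, adjusted p = 0.0435) and not against control (-1.07, adjusted p = 0.0647), its control arrays differing by more than 2-fold among themselves.

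Where a gene had several probe sets they mostly agreed in sign, while the size of the difference could vary. The 25 such genes have 40 further probe sets, of which 37 had the same sign as the probe set used between the deletions, 35 in p300-deleted against control cells and 31 in CBP-deleted against control cells. The opposite signs between the deletions were at Cdca3 and Top2a. The further probe sets of both genes are dim, with mean log2 levels of 3.40 and 2.21 for Cdca3 and 3.21 for Top2a, beside 7.64 and 9.34 for the probe sets used. Sizes were close for some genes and apart for others. In p300-deleted against control cells Aurkb gave -1.37 and -1.22, but Spag5 gave -1.05, -0.51 and -0.13. When probe sets were averaged within genes, 40 mitosis genes were called between the deletions. Against control 19 were then called in p300-deleted and 2 in CBP-deleted cells.

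Other cell cycle genes were set beside the mitosis genes. Of 62 further mitosis genes measured, 26 were higher in CBP-deleted than in p300-deleted cells, with a median difference of 0.42. That is 41.9% of them, beside 5.20% of all genes called. Aspm, a spindle pole protein, differed by 1.38, and Ska1 and Spc25, both of the kinetochore, by 1.36 and 1.34. In p300-deleted against control cells 9 fell, led by Ccnf (cyclin F, -1.15), and 1 rose, Zwint (0.61), a kinetochore protein. Together they were 16.1% of the 62, beside 4.06% of all genes. The counts called were 12 to 15 between the deletions without CBP-deleted replicate 2 or 3 or p300-deleted replicate 2 or 3, and against control 0 without p300-deleted replicate 2, 3 without p300-deleted replicate 3, 5 without p300-deleted replicate 1, and 6 without CBP-deleted replicate 2 or control replicate 1.

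DNA replication genes, which act in S phase, gave calls in the same directions. Of 49, 37 (75.5%, beside 5.20% of all genes called) were higher in CBP-deleted than in p300-deleted cells, with a median of 0.72. In p300-deleted against control cells 32 fell, with a median of -0.51. Rrm2, a ribonucleotide reductase subunit, read 9.69, 10.07 and 9.89 in CBP-deleted, 8.99, 8.37 and 8.46 in p300-deleted and 9.56, 9.38 and 10.40 in control arrays, and fell 2.26-fold (limma adjusted p = 0.0212). Cdc6, a replication licensing factor, fell 1.89-fold (adjusted p = 0.039). In CBP-deleted against control cells Rfc3, Prim1 and Orc2 rose, by 0.69, 0.68 and 0.52, which is 6.12% of the 49, beside 4.93% of all genes called. That count of 3 became 0 without any 1 CBP-deleted array or without control replicate 1, and 11 without control replicate 3. In p300-deleted against control cells 65.3% of replication genes were called, beside 42.3% of mitosis genes and 4.06% of all genes, and their median SD over the control arrays was 0.18, against 0.52 for mitosis genes. The count of 32 became 5 without p300-deleted replicate 2 and between 15 and 17 without p300-deleted replicate 1 or 3, CBP-deleted replicate 2 or control replicate 1. The count of 37 became 19 without CBP-deleted replicate 2 and 24 without p300-deleted replicate 2.

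**Figure D3:**
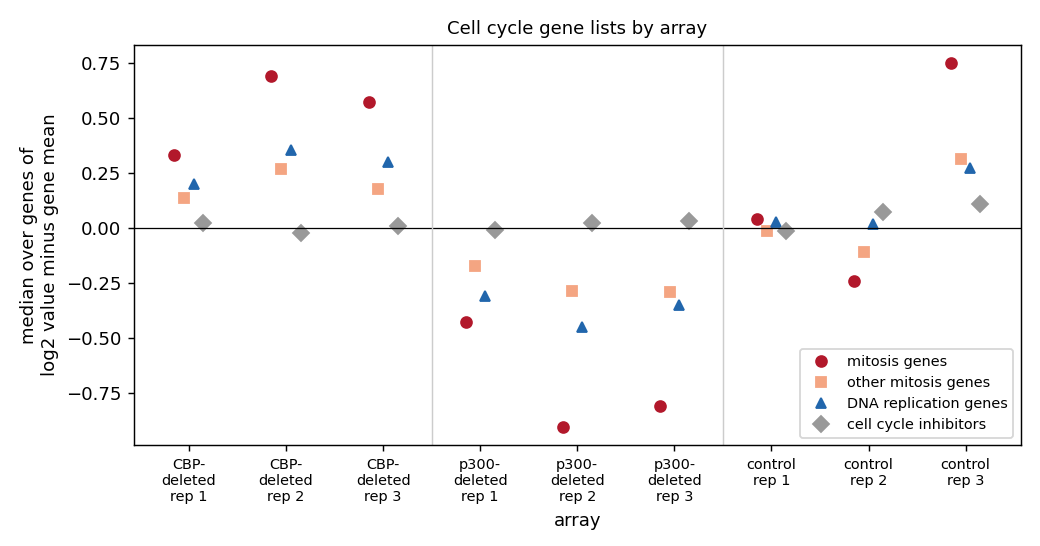
Median over genes of the log2 value minus the gene's mean over 9 arrays, for each array, in mitosis genes, other mitosis genes, DNA replication genes and cell cycle inhibitors. The p300-deleted arrays lie below 0 in the first 3 lists, the CBP-deleted arrays and control replicate 3 above 0, and the inhibitors lie between -0.02 and 0.11 on every array.

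Genes that control the cell cycle were also counted by list. Of all genes, 5.20% were called between the deletions, 4.06% in p300-deleted against control cells and 4.93% in CBP-deleted against control cells. Of 18 regulators of cell cycle transcription, 4 were higher in CBP-deleted than in p300-deleted cells: E2f8 by 1.24, Mybl2 (B-Myb, the partner of MuvB) by 0.96, Tfdp1 by 0.83 and E2f1 by 0.76. E2f8 and Mybl2 fell in p300-deleted against control cells, by 1.04 and 0.80 on the log2 scale, and E2f1 rose in CBP-deleted against control cells by 0.52. Of 21 cell cycle inhibitors, 4 rose in p300-deleted cells. Cdkn1b (p27, an inhibitor of cyclin-dependent kinases) read 9.79, 10.15 and 9.69 in p300-deleted and 8.70, 7.77 and 9.14 in control arrays, 2.53-fold higher (limma adjusted p = 0.0202), and Btg2, an antiproliferative gene, was 2.54-fold higher (adjusted p = 0.0227). Slfn2 and Btg1 rose by 0.56 and 0.45. In CBP-deleted cells Cdkn1b read 9.49, 9.36 and 9.68 and was not called against control (0.97, adjusted p = 0.0598), and the antiproliferative genes Tob1 and Tob2 and the transcription factor Klf4 fell, by 0.87, 0.53 and 0.81 on the log2 scale. Cdkn1b and Btg2 were not called between the deletions (limma adjusted p = 0.516 and 0.159). Of the inhibitors Klf4 alone was called there, at -1.11, which is 4.76% of the 21 and near the share of all genes. Of 14 genes of G1 cyclins and growth, Max, the partner of Myc, rose in both, by 0.80 in p300-deleted and 0.55 in CBP-deleted cells, and Cdk6 rose by 0.54 in CBP-deleted cells. Nolc1 and Nop56, both of the nucleolus, fell in p300-deleted cells, at -0.39 and -0.30. With 1 array left out, between 3 and 4 regulators were called between the deletions. The small counts against control moved more. In p300-deleted against control cells they were 0 to 3 regulators, 0 to 5 inhibitors and 1 to 7 genes of G1 cyclins and growth, with the lowest count of regulators and of inhibitors without p300-deleted replicate 2. In CBP-deleted against control cells they were 0 to 3 regulators, 1 to 6 inhibitors and 0 to 4 genes of G1 cyclins and growth. All 3 were highest there without control replicate 3, and lowest without CBP-deleted replicate 2 or 3, among others.

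Some genes listed as markers of other cells also differed between the groups. Whether the Treg cells themselves express them was not tested. The summed linear level of the 6 plasma cell markers was 5258 to 6617 in CBP-deleted, 10180 to 12050 in p300-deleted and 5253 to 6353 in control arrays. Jchain, the brightest, weighs most in that sum, at a mean log2 level of 12.19, and Tnfrsf17 was dimmest, at 4.96. Against control, 4 of 6 rose in p300-deleted cells, among them Tnfrsf17 and Jchain (log2 differences 1.79 and 1.03). Of all genes, 2.02% were called higher in that comparison. Between the deletions 4 of the 6 were called lower in CBP-deleted cells and 0 higher, while 2.01% of all genes were called lower. For 10 mast cell and basophil markers the summed level was 315.6 to 645.4 in CBP-deleted, 587.9 to 996.6 in p300-deleted and 332.0 to 347.3 in control arrays. Against control 6 of the 10 were higher in p300-deleted cells. The 13 myeloid and neutrophil markers summed to 713.4 to 4765 in CBP-deleted, 860.2 to 3557 in p300-deleted and 303.2 to 707.0 in control arrays, and 1 of them, Camp, rose in p300-deleted cells. The 10 B cell markers summed to 529.0 to 754.9, 646.5 to 1052 and 936.9 to 1071 in CBP-deleted, p300-deleted and control arrays. In CBP-deleted cells 3 of them fell against control, while 2.79% of all genes were called lower. For 11 CD8 T cell and NK cell markers the ranges were 1879 to 2626, 2438 to 3178 and 2535 to 2663, in the same order. The lowest sums were those of the 6 thymocyte markers (131.6 to 145.0, 185.1 to 208.1 and 164.0 to 196.4) and the 5 erythroid markers (88.58 to 89.98, 90.85 to 117.5 and 96.07 to 154.0). In each of these lists 1 marker fell in CBP-deleted against control cells. The members of a list differed widely in level. Of the B cell markers Ebf1 was dimmest and Cd79b brightest, at mean log2 levels of 2.78 and 7.69. Of the thymocyte markers these were Rag1 and Dntt, at 2.89 and 6.75. The part of these cells in the mitosis gene differences was not tested.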

How the data were processed

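RNA of CD4+CD25+ Treg cells from 9 samples was hybridised to single-channel Affymetrix arrays. The deposited values are log2 RMA values, 1 per probe set and array. RMA is named per the submitters' processing notes, which state neither version nor settings, and the array medians are 5.49 to 5.59. No further normalization or filter was applied. Of 22690 probe sets, 64 controls were set aside. Of the rest 20380 had 1 gene symbol in the platform annotation, 691 several and 1555 none; 12393 genes were measured, each by its brightest probe set. RefSeq (GRCm38.p6) changed 0 symbols, and 29 gene identifiers had no match.

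All genes were fitted in limma 3.58.1 (R 4.3.3) over all 9 arrays, 6 residual degrees of freedom, trended empirical Bayes, no covariate, two-sided. The p-values were Benjamini-Hochberg adjusted over all genes at 0.05, and 95% intervals are unadjusted. The smallest p an exact permutation test of 3 arrays against 3 can give is 0.1, so none was used. The number of arrays limits the precision. P-values set each difference against the gene's spread within groups, pooled over all 3 groups, so the group not compared also enters. For mitosis genes that spread was unequal, with a median SD of 0.19 in CBP-deleted, 0.26 in p300-deleted and 0.52 in control cells. With only the compared groups in the fit, 5 mitosis genes were called in p300-deleted against control cells, beside 22 over all arrays. What the independent samples share is not stated. The procedure was tested on simulated data, in which genes varied independently and each gene had the same spread in every group. It recovered 47.3% to 50.1% of log2 changes of 0.5 and 97.9% to 98.5% of changes of 1. Of its calls 4.61% to 5.43% were false. The mitosis genes moved together over arrays and had unequal spreads, which the simulation did not cover.

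The members and all gene lists were chosen with earlier results of these data known. Full statistics went to at most 12 members per comparison with the largest change past the threshold, and to the brightest member of each role; of other lists, up to 4 genes per comparison were named. Foxp3, Crebbp, Ep300 and Il2ra were named as checks, and genes given as exceptions (Pttg1, Smc4, Foxm1) or with per-array values beyond these limits were picked with their values in view. The 20 alternatives left out each array in turn (9) or changed the probe set, dim gene filter, scaling, variance model, array weights, samples, replicate block or, added after seeing the data, an 18S covariate (11). The replicate numbers did not pair the samples: correlations of same-numbered arrays' deviations lay between -0.23 and 0.27.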

Additional observations from a re-analysis of the deposited data

Results flagged for a closer look

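The changes of the mitosis genes from control differed between the deletions. The direct test of that difference, CBP-deleted against p300-deleted cells, called 49 of 52 genes, all higher in CBP-deleted cells (limma, adjusted p below 0.05), beside 5.20% of all genes called in either direction. The median change from control was 0.33 for the CBP deletion and -0.91 for the p300 deletion; both use the same control arrays. What lies behind it was not tested.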

How the results depend on the processing

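The signs of the median differences held under all 20 alternatives: 1.08 to 1.39 for CBP-deleted minus p300-deleted, -1.22 to -0.58 for p300-deleted minus control and 0.11 to 0.59 for CBP-deleted minus control. The 49 genes called between the deletions became 34 to 50 under the 11 alternatives other than leaving out an array and 17 to 50 with 1 array left out. In p300-deleted against control cells the 22 calls became 42 with array weights, 5 with only those groups in the fit, and 1 to 44 with 1 array left out. In CBP-deleted against control cells the 2 calls became 15 with array weights, 1 with only those groups in the fit, and 0 to 25 with 1 array left out. With the replicate block, 45, 19 and 2 genes were called in these comparisons, in the same order; the numbers did not pair the samples. The cause of these shifts was not tested, beyond fewer samples where arrays or a group were left out. The sign was followed under the alternatives for 50 differences of single mitosis genes, and not for the other called values. Of these 50, 3 changed sign, all in CBP-deleted minus control and 0 of them called. They were Incenp (0.07, lowest -0.13), Kif22 (0.13, lowest -0.14) and Mki67 (0.07, lowest -0.26). With 3 arrays a group, a gene that missed the threshold is not shown to be equal between groups.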
